A study of Homo sapiens with 36 samples.

Results

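NT2/D1-A4 cells that had been pretreated with GSK-J4 and then exposed to cisplatin were compared with NT2/D1-A4 cells given GSK-J4 and no cisplatin. The 2 groups held 3 RNA-seq libraries each, Combination 1 to 3 and GSK-J4 1 to 3, and made up 6 of the 36 libraries of the series. NT2/D1-A4 is a cisplatin-resistant derivative of the human embryonal carcinoma line NT2/D1 and stands for 1 selected line, so all libraries shared that acquired resistance. GSK-J4, a small-molecule inhibitor of the H3K27 demethylases KDM6A and KDM6B, was given at 1 µM for 3 days in both groups. The Combination cells then received 0.5 µM cisplatin for 6 h and were harvested a day later. The other arms of the same line, Control (labelled VC, neither agent) and Cisplatin (the same cisplatin exposure with no GSK-J4), gave the cisplatin response without pretreatment in 6 other libraries. The comparison therefore asked what cisplatin did to the transcriptome of cells pretreated with the KDM6 inhibitor.

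Cisplatin is a platinum drug that crosslinks bases within and between DNA strands. The lesions are removed by nucleotide excision and crosslink repair, and those that stall replication or transcription lead to stabilization of p53, which transcribes genes for cell cycle arrest (CDKN1A), apoptosis (FAS, PMAIP1), DNA repair (DDB2, RRM2B) and its own restraint (MDM2, PPM1D). Embryonal carcinoma, the pluripotent stem cell of testicular germ cell tumours, usually keeps wild-type p53 and is known for unusual sensitivity to cisplatin, so resistant derivatives are used to study how that sensitivity is lost. KDM6A and KDM6B remove the repressive H3K27me3 mark that polycomb repressive complex PRC2 writes.

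The deposited table held log2 CPM for 16431 genes, where CPM is the count of a gene scaled by the library's TMM-adjusted total. The CPM below are those values on the linear scale. Depth ran from 26.84 to 49.52 M reads across the 12 NT2/D1-A4 libraries, and the 6 compared here spanned the same range. All 12 embryonal carcinoma markers were measured, with summed levels of 8380 to 8610 CPM in GSK-J4 and 7600 to 8390 CPM in Combination. Of the other marker lists, 3 of 10 yolk sac tumour, 2 of 10 blood cell, 4 of 9 seminoma and 6 of 10 fibroblast and stromal markers passed the authors' expression filter. The seminoma markers summed to 236 to 240 CPM in GSK-J4 and 235 to 242 CPM in Combination. Combination 1 and Combination 3 stood apart from each other. Their spread was 3.18 times the counting noise, against 1.31 to 2.01 times for every other pair within an arm, and their deviations from the Combination mean ran with the GC content of the gene in opposite directions (Spearman rho 0.548 and -0.547 over 9889 genes). GSK-J4 1 deviated with transcript length (rho -0.268). The part of these library differences in the results was not tested. The counts are therefore also given without single libraries.

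Few genes were called for cisplatin after GSK-J4, and most of the called rises (17 of 26) were also called without the inhibitor. Past both thresholds, 1.3 for the fold and 0.05 for the adjusted p (limma on all 12 libraries, Benjamini-Hochberg over all genes), 26 genes rose (0.158% of those tested) and 36 fell (0.219%). The rises included MMP14, SDC1, APOBEC3C, EPS8L2, BTG2 and SFN. The falls included the linker histone gene H1-2, the immediate early gene EGR1 and a set of noncoding RNAs. With the adjusted p alone, 117 genes rose (0.712%) and 90 fell (0.548%). A total of 2403 genes had an unadjusted p under 0.05 (limma), so more genes may have changed than were called. The 3 GSK-J4 and the 3 Combination libraries did not overlap for 61 of the 62 called genes, and for 18.1% of all genes tested. In bulk RNA, fewer cells of one kind and less RNA per cell cannot be told apart.

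The number of called genes depended on single libraries. It was 22 without GSK-J4 1, 39 without GSK-J4 3, 20 without Combination 2, 107 without Combination 1 and 98 without Combination 3. It was 18 when the 6 libraries were fitted alone. The 207 genes past the adjusted p alone became 35 without Combination 2, 44 without GSK-J4 1 and 638 without Combination 1. That number was 32 with the 6 libraries alone and 696 with a length and GC trend removed. In each of the 6 fits that left out 1 of the 6 libraries, the same 12 genes were called, and the description starts with them. They included the rises MMP14, SDC1, APOBEC3C, EPS8L2 and GJA5, and the falls H1-2, EGR1, ZCCHC12, LINC01089 and RN7SL1.

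MMP14 (14:22836585-22847758, GRCh38.p14) encodes MT1-MMP, a membrane-anchored collagenase. It was chosen for description after its values were seen. Its levels were 44, 46.6 and 44.9 CPM in GSK-J4 1 to 3 and 65.1, 60.1 and 58.1 CPM in Combination 1 to 3. Every Combination library was above every GSK-J4 library, and the change was 0.43 ± 0.05 log2 (SE) with an adjusted p of 0.00017 (limma). SDC1 (2:20200797-20225475), the heparan sulfate proteoglycan syndecan-1, went from 18.0, 17.9 and 19.7 CPM to 26.2, 27.6 and 24.0 CPM (0.48 ± 0.06 log2, limma adjusted p 0.0006). APOBEC3C (22:39014257-39020352), a cytidine deaminase of the APOBEC3 family, was nearly constant in GSK-J4 at 13.2, 13.26 and 13.11 CPM and reached 19.7, 17.3 and 18.3 CPM in Combination (0.48 ± 0.07 log2, limma adjusted p 0.0014). These 3 genes also rose with cisplatin alone, by 0.58, 0.69 and 0.52 log2.

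EPS8L2 (11:706231-727727), an actin-regulating relative of the EGFR substrate EPS8, lay at 23.7, 23.0 and 26.0 CPM in GSK-J4 and 33.9, 33.6 and 31.0 CPM in Combination (0.44 ± 0.07 log2, limma adjusted p 0.0025). GJA5 (1:147756199-147773351), which encodes the gap junction protein connexin 40, rose from 3.24, 3.07 and 2.82 CPM to 4.28, 4.21 and 4.49 CPM (0.51 ± 0.09 log2, limma adjusted p 0.0085). GJA5 differed from the others in its starting level. It lay below the Control libraries in all GSK-J4 libraries, so that the Combination level stayed under that of untreated cells. EPS8L2 overlaps DEAF1, and GJA5 and SDC1 each overlap an uncharacterized locus. The strand setting of the authors' count is not given in the sources used here, so reads of these neighbours could not be separated.

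**Figure D1:**
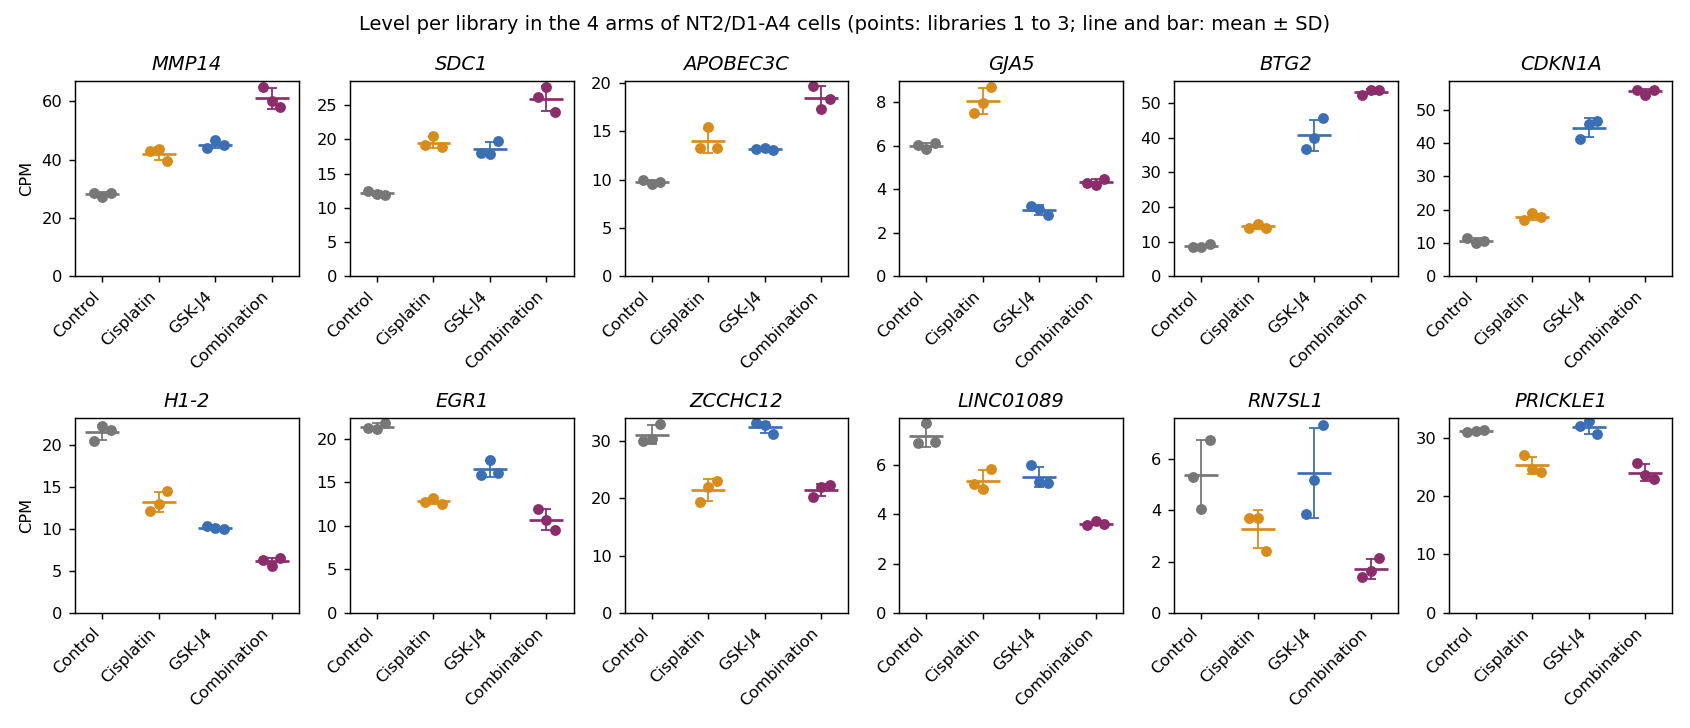
Levels (CPM, linear axis from 0) of 12 genes in the 4 arms of NT2/D1-A4 cells. Points are libraries 1 to 3, and the line and bar give the mean and SD. For each gene shown, the 3 Combination libraries lie wholly above (upper row) or wholly below (lower row) the 3 GSK-J4 libraries, whereas the starting level under GSK-J4 was above Control for BTG2 and CDKN1A and below it for GJA5 and H1-2.

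Among the remaining rises, SAMD9, an interferon-induced antiviral factor, moved from 1.70, 2.05 and 2.01 CPM to 2.97, 2.65 and 2.88 CPM (0.56 ± 0.12 log2, limma adjusted p 0.03). ANGPTL2, a secreted angiopoietin-like protein, moved from 6.34, 6.35 and 7.09 CPM to 9.29, 9.92 and 8.96 CPM (0.51 ± 0.08 log2, limma adjusted p 0.0044). HAND1, a basic helix-loop-helix factor of extraembryonic and cardiac mesoderm, moved from 5.65, 5.11 and 6.17 CPM to 8.25, 7.75 and 7.62 CPM (0.48 ± 0.10 log2, limma adjusted p 0.021). Of these, ANGPTL2 was the steadiest and lost its call only without Combination 2. PRICKLE3, SYNGR1, SYTL5, CLEC1A, PALM, TRANK1 and PLCB2 also rose, by 0.45 to 0.60 log2 from levels of 1.60 to 6.04 CPM, and SYTL5 was called in none of the 6 fits with a library left out. The other rises outside the rule for named genes, namely ELOVL2, LPP, ANK1, PLEKHG1, INKA2, CLDN1, FBN2 and ALDH1A3, changed by 0.39 to 0.44 log2. They included ALDH1A3, a retinoic acid-synthesizing enzyme (12.5, 12.8 and 13.7 to 18.2, 16.4 and 16.6 CPM), and FBN2, the microfibril protein fibrillin-2 (66.3, 93.8 and 93.4 to 119, 108 and 110 CPM), which was lowest in GSK-J4 1. All 26 rises were protein coding. Of them, 15 were highest in Combination 1 among the 6 libraries and 15 were lowest in GSK-J4 1.

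Cyclin D1 missed the fold threshold narrowly. CCND1 (11:69641156-69654474), which drives cells from G1 into S phase and was picked out after its values were seen, lay at 163.2, 173.4 and 174.2 CPM in GSK-J4 and 236.0, 215.3 and 210.8 CPM in Combination. The groups did not overlap and the fold change was 1.295 (limma adjusted p 0.00011). It passed the adjusted p in each of the 6 fits with a library left out. With cisplatin alone it rose from a mean of 218.4 to 310.5 CPM, so that the level reached after both agents, 220.7 CPM, was close to that of Control.

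H1-2 (6:26055740-26056470), a replication-dependent linker histone, went from 10.4, 10.1 and 10.01 CPM to 6.26, 5.65 and 6.54 CPM (-0.72 ± 0.07 log2, limma adjusted p 5.4e-05). The groups did not overlap. It fell by 0.71 on the log2 scale with cisplatin alone, and the test of the difference did not call it.

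The region just upstream of H1-2 is shown because histone H1 promoters are known for a conserved H1 box and a CCAAT motif, both of which could be found by their letters. The stretch is chr6:26056508-26056604 (GRCh38.p14, minus strand, RefSeq), with AAACACA and CCAAT in capitals:
H1-2: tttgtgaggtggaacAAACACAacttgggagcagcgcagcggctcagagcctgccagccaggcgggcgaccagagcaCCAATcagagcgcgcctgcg
Searched on both strands in the 250 bases before each start site, AAACACA stood in 2.67% and CCAAT in 34.9% of the promoters of the 12328 tested genes with an entry.

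H1-2 was 1 of 16 measured replication-dependent histone genes, whose transcripts carry a stem-loop in place of a poly(A) tail and are poorly kept by the poly(A) selection used here. H2BC12, which encodes an H2B, passed the adjusted p with a smaller fall, from 10.4, 9.64 and 9.85 CPM to 6.92, 8.40 and 7.92 CPM (-0.37 ± 0.08 log2, limma adjusted p 0.026). H2BC12 did not pass without GSK-J4 1, 2 or 3. No member rose past the test. Of the 16, 2 lay above 0, and the median was -0.35 log2 against 0.0016 over all genes tested, staying between -0.40 and -0.31 when any of the 6 libraries was left out. The summed level of the list was 39.9 to 40.3 CPM in GSK-J4 and 29.1 to 32.5 CPM in Combination, and the groups did not overlap. In the arms without the inhibitor it was 53.2 to 56.0 CPM in Control and 41.9 to 47.6 CPM in Cisplatin, while the median over members there was -0.014 log2. H1-2 carried a large part of both falls in the sum. Its means were 10.15 CPM in GSK-J4, 6.15 CPM in Combination, 21.55 CPM in Control and 13.24 CPM in Cisplatin. H1-2 and H2BC12 each lay near 10 CPM in GSK-J4, so the other members were low on average and the median rests largely on them.

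EGR1 (5:138465479-138469303), a zinc finger factor induced by growth factor and ERK signalling, fell from 15.9, 17.6 and 16.1 CPM to 11.9, 10.7 and 9.52 CPM (-0.63 ± 0.07 log2, limma adjusted p 0.00014). The groups did not overlap. It fell by 0.74 on the log2 scale with cisplatin alone. EGR1 was the only member of the 25 measured AP-1 and immediate early genes past the test, and the median of that list was 0.029 log2. Its promoter is shown because serum response factor is known to act on EGR1 through CArG boxes. The stretch is chr5:138465354-138465425 (GRCh38.p14, plus strand, RefSeq), 125 to 54 bases before the start site, with 2 CArG boxes in capitals:
EGR1: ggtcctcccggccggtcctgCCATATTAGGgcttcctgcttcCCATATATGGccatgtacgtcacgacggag
A CArG box stood in 1.14% of all promoters searched, and EGR1 held the only match among the 20 called falls with a promoter entry.

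ZCCHC12 (X:118823824-118826968), a zinc finger coactivator, went from 33.1, 32.8 and 31.3 CPM to 20.2, 22.0 and 22.2 CPM (-0.59 ± 0.06 log2, limma adjusted p 6.6e-05) and fell by 0.54 on the log2 scale with cisplatin alone. PRICKLE1, a planar cell polarity protein, went from 32.0, 32.8 and 30.6 CPM to 25.7, 23.6 and 22.9 CPM (-0.41 ± 0.05 log2, limma adjusted p 0.00083) and passed the adjusted p whichever of the 6 libraries was left out. It lies outside the rule for named genes. In both cases no Combination library reached the lowest GSK-J4 library.

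Noncoding RNAs appeared among the falls and not among the rises. Of the 36 falls, 19 were protein coding and 13 were lncRNAs, whereas lncRNAs made up 12.3% of the genes tested. The 2013 lncRNAs tested had a median of -0.05 log2, and of -0.04 with cisplatin alone. Of the 17 falls that were not protein coding, 15 had their highest level in GSK-J4 1, and so did 15 of the 19 that were. RN7SL1 (14:49586580-49586878), the RNA of the signal recognition particle, showed the largest fall among genes over 1 CPM. Its levels were 3.85, 5.17 and 7.32 CPM in GSK-J4 and 1.39, 1.63 and 2.13 CPM in Combination (-1.64 ± 0.22 log2, limma adjusted p 0.00094). It has near-identical copies, overlaps RPS29 and is not polyadenylated, so its value is uncertain. LINC01089 (12:121795267-121802946) went from 6.00, 5.29 and 5.27 CPM to 3.57, 3.72 and 3.59 CPM (-0.60 ± 0.09 log2, limma adjusted p 0.0025) and overlaps SETD1B.

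MIR17HG (13:91347687-91354577), the host transcript of the miR-17-92 cluster, lay at 14.8, 6.47 and 7.81 CPM in GSK-J4 and 3.49, 4.76 and 5.61 CPM in Combination (-1.004 ± 0.22 log2, limma adjusted p 0.028). The groups did not overlap, but the highest value came from GSK-J4 1 alone, and the call was lost without that library, without GSK-J4 3 and without Combination 2. PABPC1L, a germ cell poly(A)-binding protein gene outside the rule for named genes, had a like pattern, with 22.0, 10.2 and 14.1 CPM in GSK-J4 and 6.78, 6.75 and 10.5 CPM in Combination, and was the only called gene whose groups overlapped. PRSS53, GSDMB, YJEFN3, ACCS, SDHAP3 and the readthrough transcript STAG3L5P-PVRIG2P-PILRB also fell, by 0.69 to 0.88 log2. Each of these 6 lost its call without GSK-J4 1. Without GSK-J4 1, 10 of the 36 falls and 6 of the 26 rises kept their call. The 36 falls had a median of -0.56 log2 in that fit, and all kept their sign. For 35 of them the groups did not overlap, so leaving out a library could not turn the sign. The falls not named in the text were mostly uncharacterized loci or genes of low level, and each of the 36 lay between -0.39 and -1.73 log2.

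The p53 pathway moved up by small steps. Of 96 measured members of 5 p53 lists, 86 lay above 0 (50.6% of all genes did), 18 rose with an adjusted p under 0.05 (0.712% of all genes did), 3 of these past the fold threshold as well (0.158%), and MDM4 fell. The 18 depended on single libraries. It was 3 without GSK-J4 1 (TP53INP1, PLK2 and CMBL), 3 without Combination 2 (TP53INP1, CMBL and ZMAT3), 11 without GSK-J4 2 and 24 without Combination 1, and MDM4 did not pass without GSK-J4 1, GSK-J4 3 or Combination 2. The number above 0 was 82 to 86 in these fits. The median was 0.16 log2, against 0.0016 over all genes tested, and stayed between 0.13 and 0.19 when any of the 6 libraries was left out. With cisplatin alone, 47 of the same 96 rose past the adjusted p and the median was 0.24 log2.

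Of 10 genes of p53 and its feedback, 6 lay above 0, with a median of 0.13 log2 that ran from 0.049 to 0.186 with a library left out. TP53INP1, a proapoptotic cofactor, rose from 87.1, 92.4 and 102 CPM to 112, 120 and 129 CPM (0.36 ± 0.06 log2, limma adjusted p 0.0029). PPM1D, the phosphatase that shuts the response off, rose by 0.23 log2 (limma adjusted p 0.024). MDM4, an inhibitor of p53 activity, fell from 35.3, 33.0 and 36.1 CPM to 28.9, 26.3 and 30.1 CPM (-0.29 ± 0.06 log2, limma adjusted p 0.017).

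Of 14 arrest genes, 13 lay above 0 and 5 rose past the adjusted p, but 1 of these (PLK2) without GSK-J4 1, 3 without GSK-J4 2 and none without Combination 2. BTG2 (1:203305519-203309602), an antiproliferative adaptor of mRNA deadenylation, went from 36.6, 39.97 and 45.6 CPM to 52.5, 53.8 and 53.8 CPM (0.40 ± 0.07 log2, limma adjusted p 0.0064). CDKN1A (6:36676463-36687332), the CDK inhibitor p21, went from 41.2, 45.7 and 46.7 CPM to 55.9, 54.5 and 55.8 CPM (0.32 ± 0.06 log2, limma adjusted p 0.016). In both genes the Combination libraries were tightly grouped above GSK-J4. PLK2, TOB1 and SFN (14-3-3 sigma) rose by 0.33, 0.25 and 0.38 log2. The list had a median of 0.18 log2, and of 0.27 with cisplatin alone.

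Of 22 death genes, 20 lay above 0 and 4 rose, namely ZMAT3 (0.29), FDXR (0.29), APAF1 of the apoptosome (0.21) and CYFIP2 (0.21 log2). None of these 4 passed without GSK-J4 1, and without Combination 2 only ZMAT3 did. Without GSK-J4 3, FDXR and ZMAT3 did, and without Combination 1 a total of 6 members passed. ZMAT3, an RNA-binding p53 effector, went from 112, 127 and 130 CPM to 143, 145 and 161 CPM. FAS, the death receptor, lay at 18.0, 17.1 and 16.3 CPM in GSK-J4 and at 17.5, 22.3 and 22.9 CPM in Combination, overlapped between the groups and did not pass the test (0.27 log2, limma adjusted p 0.17). PMAIP1, which encodes the BH3-only protein NOXA, did not pass either and had a change of -0.01 log2 (limma adjusted p 0.98), with 131, 119 and 122 CPM in GSK-J4 and 108, 128 and 135 CPM in Combination. The sign of the PMAIP1 value turned without GSK-J4 1 and without Combination 1.

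Of 21 repair and metabolism genes, CMBL, DRAM1, FAM210B, DDB2 and RRM2B rose, by 0.23 to 0.33 log2, but only CMBL passed without GSK-J4 1 and without Combination 2, and 3 of them without GSK-J4 2. DDB2, the damage sensor of nucleotide excision repair, went from 29.2, 29.2 and 31.2 CPM to 35.9, 35.9 and 38.1 CPM. RRM2B, the p53-inducible ribonucleotide reductase subunit, went from 298, 301 and 306 CPM to 321, 363 and 403 CPM, lowest in Combination 1. SESN1, a stress-induced regulator of mTORC1, had a change of 0.19 log2 that did not pass (limma adjusted p 0.065). Of 29 signalling and other targets, 28 lay above 0, and KITLG (0.26 log2), the KIT ligand, and HES2 (0.51 log2) rose. Neither passed without GSK-J4 1 or without Combination 2, and HES2 passed only when Combination 3 was the library left out. ANXA1, a phospholipid-binding protein, had 0.22 log2 (limma adjusted p 0.14).

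The p53 genes started from a higher level after GSK-J4, and a log2 change reads the same added amount as smaller there. Mean levels were higher in GSK-J4 than in Control for 89 of the 96 members. The log2 change on cisplatin was smaller after GSK-J4 for 70 members, but the CPM added by cisplatin were more after GSK-J4 for 59 and fewer for 37, with medians of 2.00 CPM after GSK-J4 and 1.97 CPM without it. BTG2 gained 12.6 CPM after GSK-J4 (40.7 to 53.4) and 5.70 CPM without it (8.67 to 14.4), while its log2 changes were 0.40 and 0.73. CDKN1A gained 10.9 CPM (44.5 to 55.4) and 7.20 CPM (10.6 to 17.8), with log2 changes of 0.32 and 0.75. RRM2B gained 60.6 CPM and 34.3 CPM, with almost equal log2 changes of 0.26 and 0.26. The order of both conditions thus depended on the scale, and no test was made on the linear scale.

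**Figure D2:**
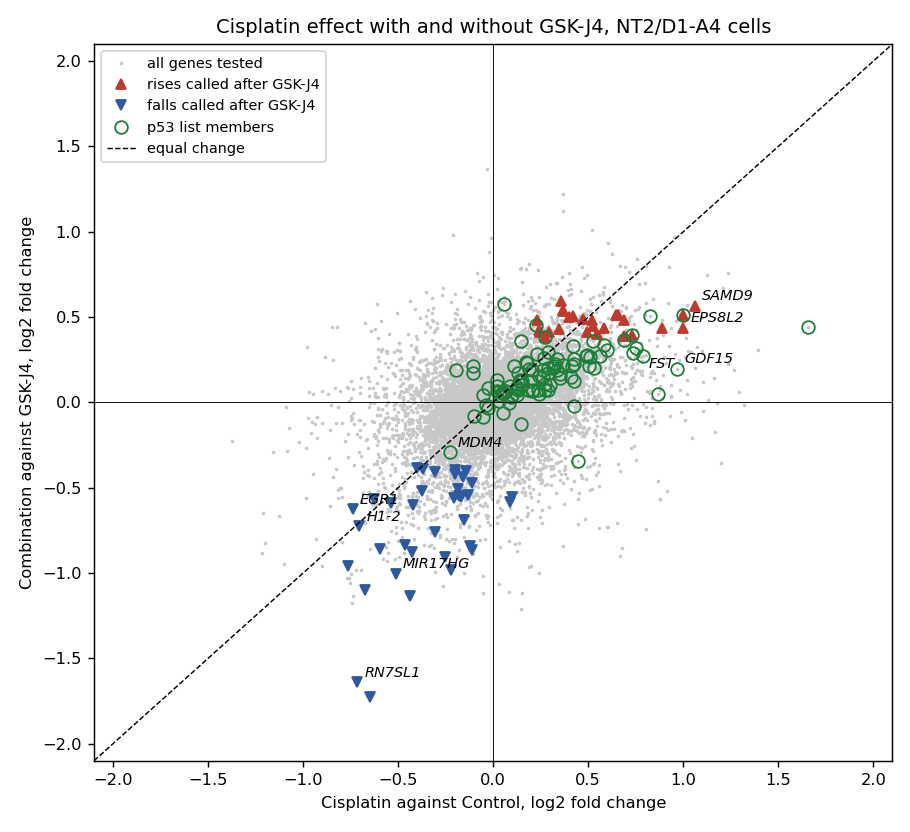
Log2 fold change of each of the 16431 genes on cisplatin after GSK-J4 (vertical axis, Combination against GSK-J4) and without it (horizontal axis, Cisplatin against Control), which share no library. The called rises and falls after GSK-J4 and the p53 list members are marked. All 26 called rises lie right of 0, 34 of the 36 called falls lie left of 0, and most p53 members lie above 0 and under the dashed line of equal change.

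The response after GSK-J4 followed the direction of the response without it. Cisplatin alone raised 337 genes (2.05% of those tested) and lowered 65 (0.396%) past both thresholds, with 961 (5.85%) and 589 (3.58%) past the adjusted p alone. Of those 337 rises, 312 (92.6%) were above 0 after GSK-J4, where 50.6% of all genes were above 0. Their median was 0.53 log2 alone and 0.22 log2 after GSK-J4. Of the 65 falls, 59 (90.8%) were below 0, with medians of -0.56 and -0.23 log2. Since genes were picked by the size of their change without the inhibitor, a smaller value in the other pair of groups is a description and not a test. Picked the other way, the 26 rises after GSK-J4 had a median of 0.47 log2 there and 0.50 log2 alone, and the 36 falls had -0.60 and -0.30 log2. The genes that rose in both numbered 17 (65.4% of the 26 and 5.04% of the 337), 9 fell in both (25% of the 36 and 13.8% of the 65), and none was called in opposite directions.

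The test of the difference between both responses called 7 genes (0.0426% of those tested), and 1174 genes had an unadjusted p under 0.05. Each of the 7 had a lower log2 change on cisplatin after GSK-J4 than without it. FST, which encodes the activin antagonist follistatin, was the only gene called whichever of the 12 libraries was left out. It rose from 11.7, 12.2 and 11.9 CPM in Control to 20.2, 20.1 and 21.0 CPM in Cisplatin, and had 44.1, 46.4 and 44.5 CPM in GSK-J4 and 49.6, 49.8 and 52.4 CPM in Combination. The log2 changes were 0.78 and 0.17, and their difference was -0.61 ± 0.07 (limma adjusted p 0.00034). The Combination libraries still lay above the GSK-J4 libraries without overlap.

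GDF15, a stress-induced cytokine of the TGF-beta family and a p53 target, showed the largest difference of the 7, -0.77 ± 0.12 log2 (limma adjusted p 0.02). Its levels were 5.87, 7.38 and 8.18 CPM in Control, 13.2, 14.5 and 13.9 CPM in Cisplatin, 67.6, 72.6 and 77.2 CPM in GSK-J4 and 84.8, 85.5 and 78.9 CPM in Combination. On the linear scale the CPM gained were more after GSK-J4, 10.6 against 6.71. PLAGL1, an imprinted zinc finger factor, reached close levels with and without GSK-J4, 10.4, 10.1 and 10.3 CPM in Combination and 9.66, 9.65 and 10.3 CPM in Cisplatin, from a higher start in GSK-J4 (7.61, 8.46 and 9.29 CPM) than in Control (4.94, 5.38 and 4.95 CPM). Its difference was -0.67 ± 0.11 log2 (limma adjusted p 0.027).

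EPS8L2 (-0.56 ± 0.09) and the homeobox gene NKX1-2 (-0.39 ± 0.06) were also called. Of the 12 fits with a library left out, EPS8L2 was called in 3, PLAGL1 in 4, NKX1-2 in 6 and GDF15 in 7. In CPM, EPS8L2 gained more after GSK-J4 (8.58 against 6.77 without it), whereas FDXR gained less (8.40 against 9.34). CDKN1A was not called (-0.43 ± 0.09 log2, limma adjusted p 0.12).

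FDXR, the mitochondrial ferredoxin reductase, was called with -0.45 ± 0.08 log2 (limma adjusted p 0.045), in 1 of the 12 fits with a library left out. Its levels were 14.5, 14.7 and 13.2 CPM in Control, 23.3, 24.1 and 23.0 CPM in Cisplatin, 37.8, 36.1 and 40.9 CPM in GSK-J4 and 46.6, 48.1 and 45.3 CPM in Combination. Its promoter is shown because it was the only one of the 96 rises past the adjusted p with a promoter entry (of 117) whose 250 bases upstream held a pair of p53 decamers, allowing 2 mismatches over the pair and a spacer of at most 13 bases. The stretch is chr17:74872995-74873045 (GRCh38.p14, minus strand, RefSeq) and ends at the base before the start site, with the decamers in capitals, 10 bases apart and with 2 mismatches:
FDXR: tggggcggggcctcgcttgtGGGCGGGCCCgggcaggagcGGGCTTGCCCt
Such a pair stood in 2.18% of all promoters searched and in 6 of the 76 p53 list members with an entry (7.89%). The p53 elements of many targets lie outside this window.

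The count of 7 changed by more than 1.5 times when a library was left out, being 2 without Control 1, 4 without Control 2 or 3, 4, 1 and 3 without Cisplatin 1, 2 and 3, 1 and 2 without GSK-J4 2 and 3, and 11 and 1 without Combination 1 and 2. In these fits the differences of the 7 genes stayed below 0.

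**Figure D3:**
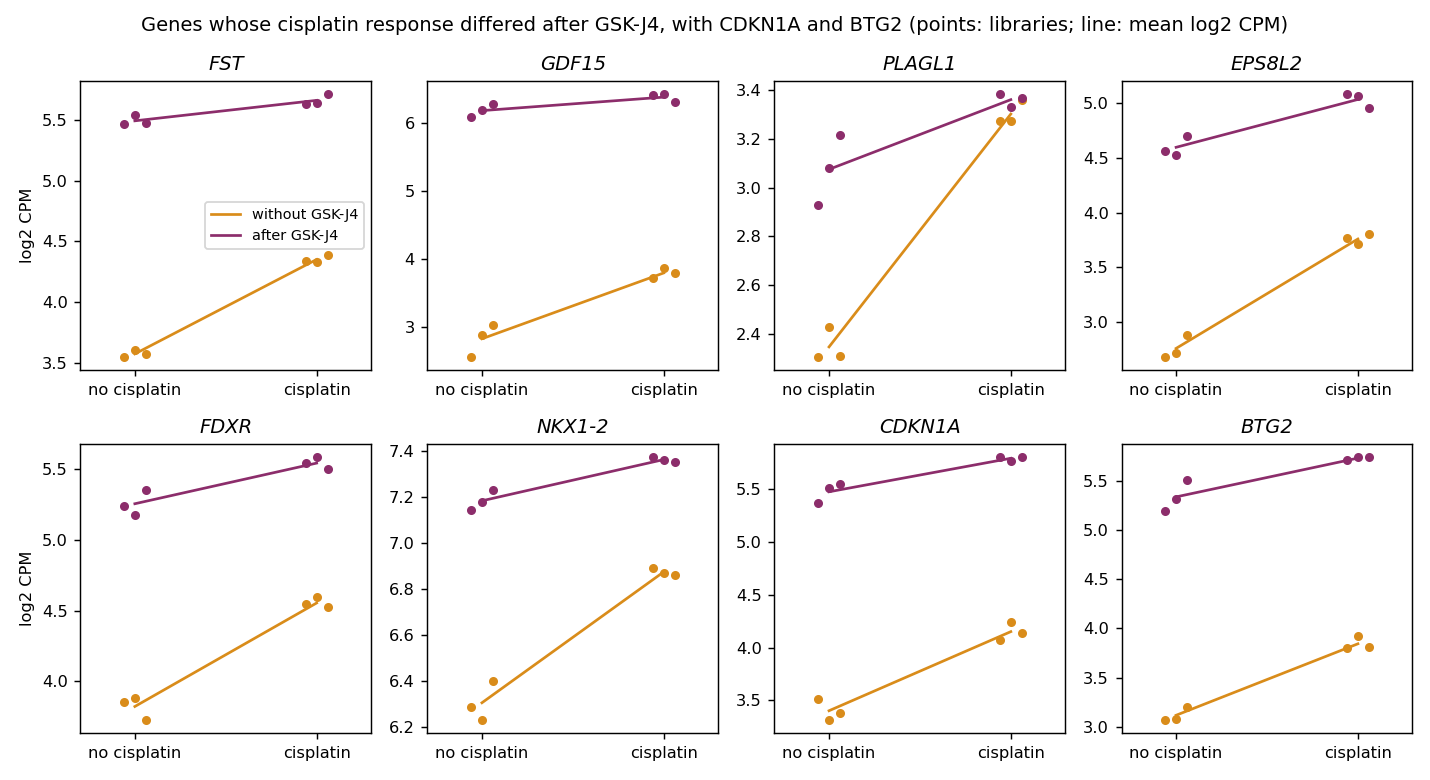
Levels (log2 CPM, a separate axis range per gene) of 6 of the 7 genes whose cisplatin response differed after GSK-J4, with CDKN1A and BTG2, which were not called, for comparison. Points are libraries and lines join the arm means. Each line for cells after GSK-J4 is less steep than the line without GSK-J4, and for the genes shown the cells after GSK-J4 start higher.

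Most other pathways did not pass the test after GSK-J4. No member passed the adjusted p among 28 integrated stress response genes, 16 unfolded protein response genes, 13 heat shock genes, 17 NRF2 targets, 32 cholesterol and fatty acid synthesis genes, 29 S phase genes, 24 cisplatin transport and detoxification genes, 27 polycomb genes, 10 DNA methylation genes, 39 chromatin modifiers, 32 NODAL and BMP genes, 16 HOX genes or 26 interferon and NF-kB genes. Without Combination 1, 4 integrated stress response genes, 3 chromatin modifiers and 2 DNA methylation genes passed as falls. No more than 2 members in either direction passed in any other of these lists in that fit. Of all 16431 genes tested, 311 fell past the adjusted p without Combination 1, against 90 with all 12 libraries. The integrated stress response stood out only by direction. Of its 28 members 3 lay above 0, with a median of -0.11 log2 (-0.04 with cisplatin alone), and ATF4, its central transcription factor, had 229, 223 and 219 CPM in GSK-J4 and 202, 202 and 208 CPM in Combination (-0.13 log2, limma adjusted p 0.059). TRIB3 (-0.32) and STC2 (-0.20 log2) likewise missed the threshold, with limma adjusted p of 0.071 and 0.058. Of 20 aminoacyl-tRNA synthetases, 3 lay above 0 and MARS1 fell by 0.17 on the log2 scale. MARS1 did not pass without GSK-J4 1, GSK-J4 2 or Combination 2.

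The targets of the inhibitor and the pluripotency factors did not pass the test, apart from 2 of the latter. KDM6A had 98.1, 96.8 and 96.8 CPM in GSK-J4 and 103, 101 and 95.1 CPM in Combination (0.04 log2, limma adjusted p 0.70). KDM6B had 21.8, 24.1 and 24.4 CPM and then 22.3, 22.2 and 20.9 CPM (-0.10 log2, limma adjusted p 0.47). EZH2, the catalytic subunit of PRC2, and the methyltransferase DNMT3B had -0.05 and -0.11 log2, with limma adjusted p of 0.66 and 0.28. POU5F1, the OCT4 gene, had -0.05 log2 (limma adjusted p 0.53). Of 24 pluripotency genes, PRDM14 fell from 246, 236 and 230 CPM to 215, 204 and 187 CPM (-0.24 ± 0.04 log2, limma adjusted p 0.0091), and L1TD1 fell by 0.19 on the log2 scale. These 2 falls did not pass without GSK-J4 1 or without Combination 2. Of 13 measured lineage markers, HAND1 rose and OTX2, of anterior neural fate, fell by 0.18 on the log2 scale. Neither passed without GSK-J4 1, GSK-J4 2 or Combination 2, and OTX2 did not pass without GSK-J4 3. The HOX genes had a median of 0.15 log2, and of 0.29 with cisplatin alone.

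Few proliferation and repair genes passed the test. Of 35 G2/M genes CDC20 fell from 245, 244 and 230 CPM to 218, 217 and 210 CPM (-0.16 log2, limma adjusted p 0.031) and CENPE fell by 0.25 on the log2 scale. Neither passed without GSK-J4 1, GSK-J4 2 or Combination 2. Of 46 crosslink and excision repair genes none rose past the test, and the median was -0.0008 log2. VEGFA, the angiogenic factor and 1 of 28 hypoxia and glycolysis genes, fell from 35.5, 31.2 and 33.1 CPM to 26.9, 25.8 and 26.3 CPM (-0.34 ± 0.08 log2, limma adjusted p 0.045), without overlap. Yet no gene of that list fell past the adjusted p without GSK-J4 1, 2 or 3, or without Combination 2 or 3. COL17A1, a hemidesmosomal collagen, was the only one of 64 extracellular matrix and adhesion genes past the test, rising by 0.33 log2. With a library left out, it passed only when that library was Combination 1 or Combination 3. Fibroblast and stromal markers, of which 6 of 10 were measured and none passed, summed to 109 to 119 CPM in GSK-J4 and 116 to 130 CPM in Combination.

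Some lists moved with single libraries. The 77 cytosolic ribosomal protein genes had a median of -0.0094 log2 with no member past the test, while their median deviation from the arm mean was -0.12 in Combination 1, -0.01 in Combination 2 and 0.14 in Combination 3. The 13 mitochondria-encoded respiratory chain genes had a median of -0.35 log2 (-0.41 with cisplatin alone) with none past the test, and that median ranged from -0.51 to -0.18 with a library left out. ND4, an example, had 2205 CPM in GSK-J4 1 but 1339 and 1533 CPM in GSK-J4 2 and 3, and 1015, 1092 and 1643 CPM in Combination, so the groups overlapped. Of 78 nuclear-encoded respiratory chain genes none passed. Of 76 mitochondrial ribosomal protein genes MRPS25 fell by 0.21 on the log2 scale, but none fell past the adjusted p in the fits with a library left out, except without Combination 3. Splicing factors kept their direction. Of 74 measured, 12 lay above 0, and the median of -0.057 log2 stayed between -0.070 and -0.054 with a library left out. HNRNPH1 fell by 0.15 on the log2 scale and did not pass without GSK-J4 1, GSK-J4 2 or Combination 2. When Combination 1 was left out, 8 splicing factors passed as falls, and so did 311 of all 16431 genes tested.

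**Figure D4:**
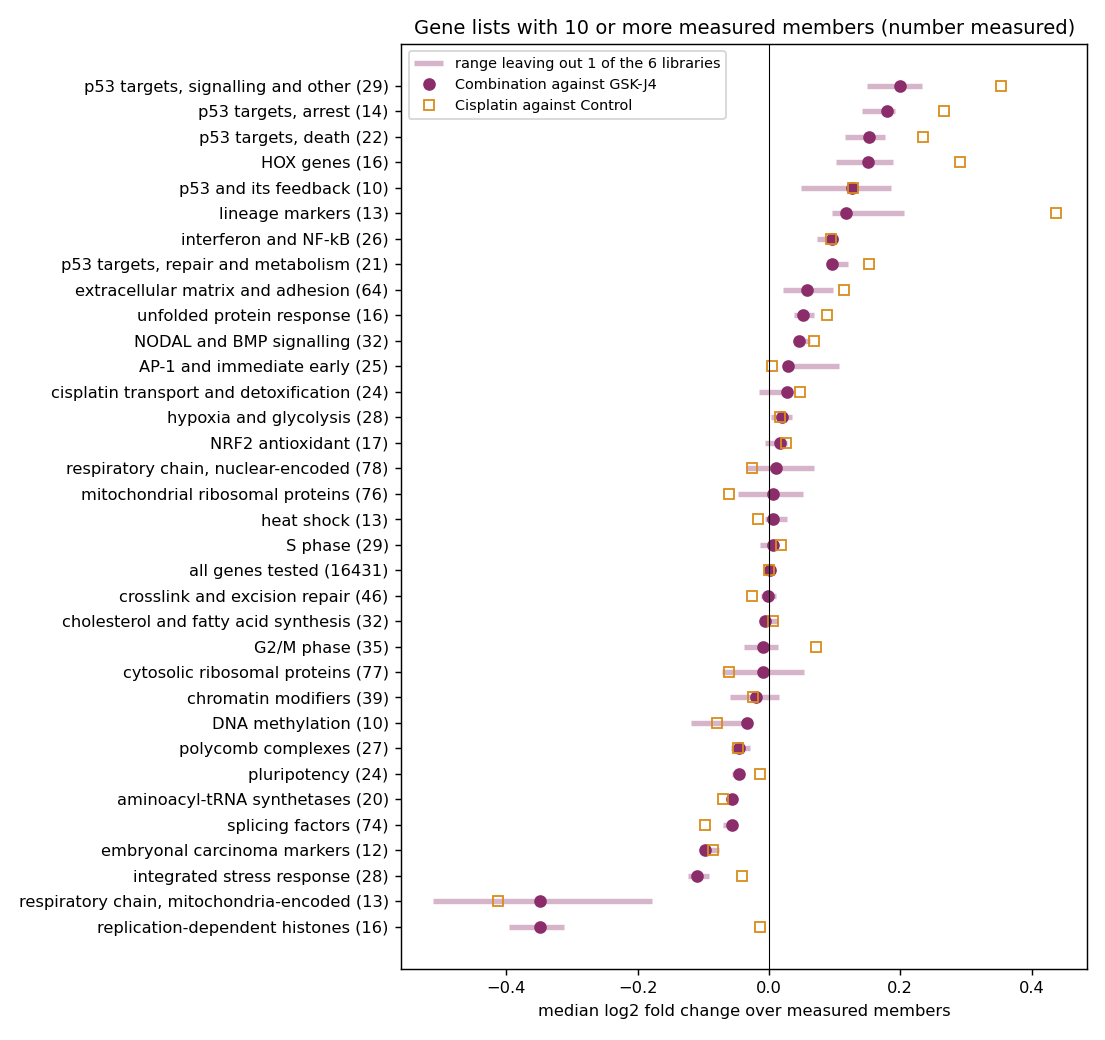
Median log2 fold change over the measured members (number in brackets) of each list with 10 or more members, after GSK-J4 (filled points, Combination against GSK-J4) and without it (open squares, Cisplatin against Control). Bars span the medians with each of the 6 libraries left out. The p53 lists lie right of 0 in both, the replication-dependent histones lie at -0.35 after GSK-J4 and -0.014 without it, and the mitochondria-encoded genes have the widest bar.

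In 2102EP-C1, a cisplatin-resistant clone of another embryonal carcinoma line treated and sequenced in the same way, cisplatin after GSK-J4 raised 156 genes (0.916% of 17035 tested) and lowered 223 (1.31%). These values come from a separately normalized table and are set side by side only. All 26 rises of NT2/D1-A4 were measured there, 23 were above 0, 9 were called as rises, and the median was 0.31 log2. Of the 36 falls 33 were measured, 25 were below 0, 2 were called as falls, and the median was -0.14 log2. BTG2 had 0.71 log2, HES2 1.04 log2, CLDN1, a tight junction protein, 0.64 log2 and EPS8L2 0.58 log2 in 2102EP-C1. H1-2 had -0.56 log2 but EGR1 had -0.11 log2. The 96 p53 members had medians of 0.16 log2 in NT2/D1-A4 and 0.21 log2 in 2102EP-C1, the integrated stress response -0.11 and 0.17 log2, and the hypoxia and glycolysis genes 0.02 and -0.27 log2.

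**Figure D5:**
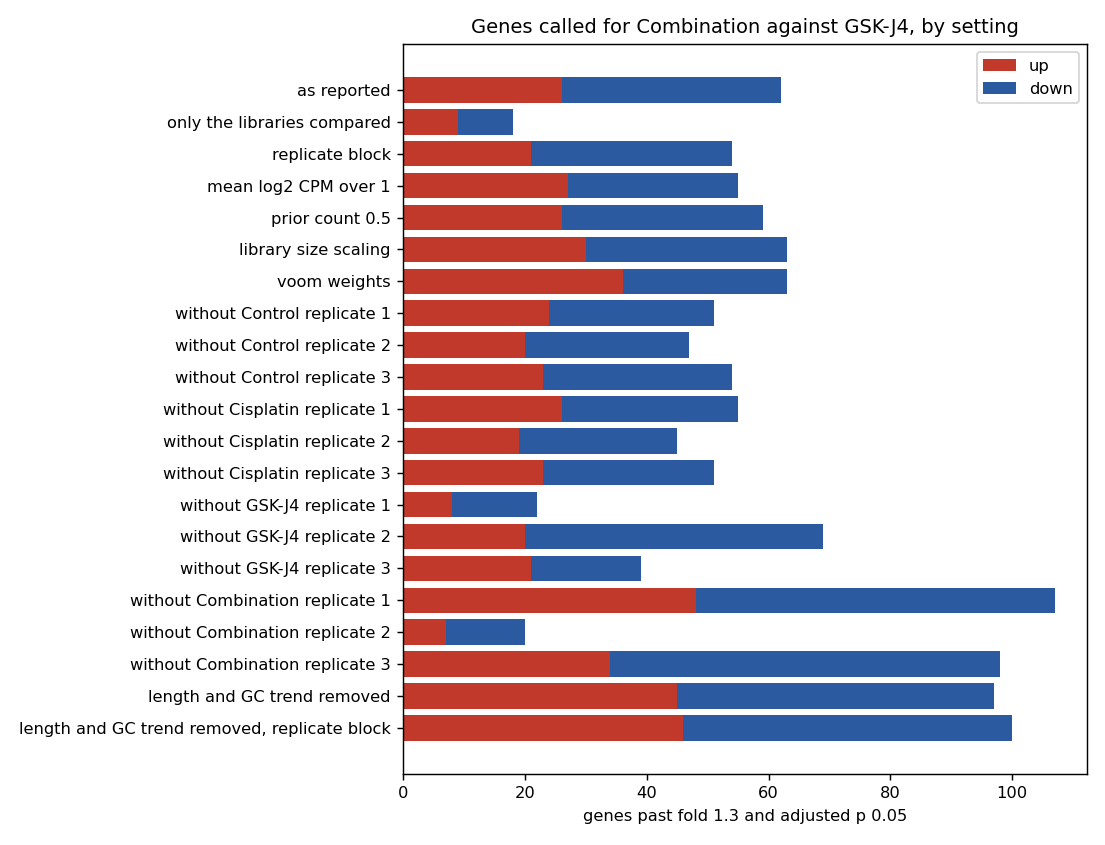
Number of genes called for Combination against GSK-J4 (fold change over 1.3 and adjusted p under 0.05) under each setting, split into rises and falls. The count runs from 18 with only the 6 libraries in the fit to 107 without Combination 1, against 62 as reported.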

How the data were processed

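Poly(A)-selected, stranded RNA-seq libraries were made in biological triplicate. Reads were trimmed (Trimmomatic), aligned to GRCh38.p14 (STAR) and assigned to genes (featureCounts) by the authors, who dropped genes not above 0.5 CPM in 2 or more samples, scaled by TMM and deposited log2 CPM values. Tool versions and the strand setting are not given in the sources used here. The values carried a prior count of 3 reads (of 45185 low values, 100% gave whole reads within 0.05), which understates log2 changes of low genes.

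The 12 NT2/D1-A4 libraries were fitted with limma 3.58.1 (R 4.3.3; an intensity trend, 1 mean per group, no block), two-sided, with Benjamini-Hochberg adjustment over all genes within each contrast. The study's thresholds (fold 1.3, adjusted p 0.05) defined a call. In simulated data of 16431 genes for Combination against GSK-J4, 90% of planted changes of 0.5 log2 and 100% of 1 log2 were called, with 5 false calls. The simulation gave all genes and arms the same small spread beyond counting noise and planted no changes in genes with few reads. It held no GC or length deviations of single libraries, so these shares do not measure detection in the real libraries. Named genes were the 15 largest called rises and 15 largest called falls of at least 1 CPM on average and with no overlap between groups, genes called for the difference of responses, list members past the adjusted p or else up to 3 with the smallest p, and genes the paper names; others were chosen after their values were seen (such as CCND1, MMP14 and the SNHG genes). Some genes that meet the rule are not reported here. The comparison, the 37 gene lists and the tests were chosen with earlier results of these data known. Gene models and promoters came from RefSeq and transcript length and GC content from GENCODE. The alternatives were another set of libraries, a replicate block, a stricter filter, another prior count, library size scaling, voom weights, each library left out and, chosen after seeing the data, removal of a length and GC trend.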

Additional observations from a re-analysis of the deposited data

Results flagged for a closer look

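The test of the difference between the cisplatin responses with and without GSK-J4 called 7 genes. The differences of 6 of them on the log2 scale were -0.77 for GDF15, -0.67 for PLAGL1, -0.61 for FST, -0.56 for EPS8L2, -0.45 for FDXR and -0.39 for NKX1-2 (limma, Benjamini-Hochberg adjusted p of 0.00034 to 0.045). In each of these 6, the 3 Cisplatin libraries lay above the 3 Control libraries and the 3 Combination libraries above the 3 GSK-J4 libraries. In 2102EP-C1 the same difference was -0.28 log2 for GDF15 and 0.13 log2 for FST, and neither passed the adjusted p there (0.097 and 0.62, limma). Groups of 3 libraries were too small to look for single outlying samples.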

How the results depend on the processing

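The count of 62 genes called for cisplatin after GSK-J4 was 18 with only the 6 libraries compared in the fit (all 18 among the 62), and 97 with a length and GC trend removed from each library. With each library left out it ran from 20 to 107. The 402 genes for cisplatin alone ran from 274 to 488, the 7 for the difference of responses from 1 to 11, and the 379 in 2102EP-C1 from 164 (without Combination 1) to 725 (without GSK-J4 3), also being 242 without GSK-J4 2. The stricter filter, the other prior count, library size scaling and voom weights left the 62 between 55 and 63. The share of rises was 26 of 62 as reported and 36 of 63 with voom weights. With a library left out, values near 0 turned sign for PMAIP1 (-0.073 to 0.087, above 0 without Combination 1 and, at 0.033, without GSK-J4 1) and, without Combination 3, for SMARCA4 (-0.106 to 0.051 log2). The causes were not tested. The fit of 6 libraries could not be made for the difference of responses. Depth was at least 26.84 M reads, and its part in the calls was not tested. Of the called genes, 3 averaged under 1 CPM over the 6 libraries.

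Deviations of GSK-J4 and Combination libraries with the same number correlated at -0.25, 0.016 and -0.098, and those of Control and Cisplatin libraries at 0.21, -0.061 and 0.025, so the numbers were not taken to pair the samples compared. Between Cisplatin and Combination libraries, which enter the difference of responses, they correlated at 0.298, 0.066 and 0.419, of which 1 was under 0.1. With the number as a replicate block the counts were 54 after GSK-J4, 390 for cisplatin alone and 6 for the difference, and with the block and the length and GC trend removed together 100, 443 and 11.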

Other observations

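Host genes of small nucleolar RNAs, which belonged to no list, were among the falls. Of 27 measured genes named SNHG and a number, 21 lay below 0 on cisplatin after GSK-J4, where 50.6% of all genes lay above 0. Their median was -0.12 log2 (-0.14 with cisplatin alone, -0.08 in 2102EP-C1), and none rose past the adjusted p. The group was chosen after its values were seen. SNHG3 fell from 46.8, 38.0 and 39.6 CPM to 30.3, 30.1 and 32.4 CPM (-0.42 ± 0.07 log2, limma adjusted p 0.0042) and passed the adjusted p whichever of the 6 libraries was left out. SNHG19 (-0.47) and SNHG12 (-0.51 log2) were also called, and SNHG1 passed the adjusted p alone (-0.34 log2). These 3 lost that without GSK-J4 1 and without Combination 2. In sum, 3 of the 27 were called falls (0.219% of all genes were) and 4 fell past the adjusted p (0.548%). SNHG3 overlaps RCC1, which itself passed the adjusted p, and SNHG12 overlaps TRNAU1AP. Reads of these neighbours could not be separated. Without GSK-J4 1 the median over the 27 was -0.11 log2.

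Of the 62 called genes, the 15 rises and 16 falls that overlap another annotated gene could not be separated from that neighbour.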
